A study of Homo sapiens with 6 samples.

Results

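The 40 genes described here encode proteins of the small nuclear ribonucleoproteins (snRNPs) of the major spliceosome, and they were taken from a list of gene names. That list was chosen with earlier results of these data known. Shares of members set beside all introns or all genes below thus describe the list and are not a test of it. Every intron listed inside a member gene, on its strand, was taken if boundary and spliced reads together averaged 20 or more over the libraries. That gave 434 introns in 39 genes, out of 134078 introns tested and 241593 listed, and the minimum removed none of the introns listed in these genes. SF3B5, a small subunit of the SF3b complex, had no intron listed and so has no value here. Poly(A)-selected RNA was sequenced from K562, an established human leukaemia cell line. The cells had been transduced with a control shRNA (Con_sh) or with 1 of 2 shRNAs against ZRSR2 (sh1 and sh2), with 2 libraries in each of the 3 groups, numbered as experiment 1 and experiment 2. All groups were thus transduced K562 cells and the control differed in the shRNA it carried. ZRSR2 is a protein of the minor spliceosome that acts at the 3′ splice site of U12-type introns, and the design asks which introns and transcripts change when it is reduced. The labels name no separate cultures, so the p-values below measure the spread between these libraries, which may be technical.

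The major spliceosome removes most introns by assembling its particles in order: U1 on the 5′ splice site, U2 with SF3a and SF3b on the branch point, and then U5 together with U4/U6. A ring of Sm proteins forms the core of the U1, U2, U4 and U5 particles, and a ring of LSM proteins binds the end of U6. The minor spliceosome replaces U1, U2, U4 and U6 with RNAs of its own, but it carries the same Sm ring, SF3b, U5 proteins and the main U4/U6 proteins. The members were grouped by role into U1 (3 genes with introns), U2 with SF3a (5), SF3b (6), the Sm ring (7), U5 with PRPF19 (7) and U4/U6 with SART1 and the LSM ring (11).

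The intron that carried the clearest difference was the first intron of SNRPE. Its 5′ splice site is shown first because its letters set it apart from those of the few other member introns that could be read. The RefSeq promoter windows (GRCh38.p14) reached the 5′ splice sites of 5 member introns. Each is printed 5′ to 3′ on its own strand with the last 10 exon bases, the first 7 intron bases in capitals and the following intron bases in lower case.
SNRPE, chr1:203861704-203861733, + strand: gcagcccatcGTATCCTacgcaggatgtca
SNRPD3, chr22:24556062-24556091, + strand: gccagagccgGTGAGGCtggggacgggcga
SNRPG, chr2:70293598-70293627, - strand: agttgaaaaaGTAAGTAtgtgtgagagcca
PRPF4, chr9:113275761-113275790, + strand: ctcttccacgGTACAGAgcccgggatccca
PRPF31, chr19:54115788-54115817, + strand: gagaggagagGTGAGTGtgatggggaccac
The SNRPE intron begins with GTATCCT, the letters with which the usual 5′ splice site of GT-type U12 introns opens. SNRPG and PRPF4 share 3 of these 7 letters by position, and SNRPD3 and PRPF31 share 2. Of 1814 tested introns of any gene whose 5′ splice site lay in such a window, 98.7% began with GT and 2 (0.110%) with GTATCCT. Those 2 were SNRPE, which was more retained after knockdown, and PHYH, which had a log2 fold change of 1.81 and an edgeR adjusted p of 0.803. Of the 1812 introns without these letters, 2 (0.110%) were also more retained over both shRNAs at an edgeR adjusted p under 0.05. The motif has no overlap with another one searched, and on either strand and at any place it stood in 1.41% of 35116 promoter windows. A match is a description of letters, and the type of these introns was not determined.

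Across the libraries, boundary reads (reads that run from an exon into an intron) summed to between 4387311 and 5199693, and spliced reads to between 82986327 and 101120454. Boundary reads per 100 spliced reads were 5.15 and 4.69 in the control, 5.54 and 4.38 with sh1 and 6.02 and 5.09 with sh2, so the experiment 1 libraries stood above the experiment 2 library of their own group. ZRSR2 itself had 28.6 and 24.2 CPM (spliced reads per gene, scaled to library size) in the control, 10.99 and 10.9 with sh1 and 10.6 and 12.9 with sh2, lower in 4 of 4 knockdown libraries. Its log2 fold change was -1.22 (SE 0.169), with an adjusted p of 0.488 by edgeR and 3.31e-07 by DESeq2. All 12 erythroid leukaemia markers fixed for K562 were at 1 CPM or more in every library, while CD2, MS4A1, CD14 and CDH1 of other cell types were at 0.515 CPM or less in every library. Of the other lists, T cell CD3D was at 18.6 to 70.8 CPM, epithelial EPCAM at 87.9 to 128 and KRT8 at 231 to 713. The summed level of the 12 K562 markers, which include globin genes, was 5074 and 6912 CPM in the control, 12556 and 6294 with sh1 and 20766 and 9608 with sh2, so it was high in the experiment 1 knockdown libraries. Its part in the results below was not tested.

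SNRPE, a subunit of the Sm ring, had an intron that was partly left in the RNA after ZRSR2 knockdown. The intron is the first of 3 in the gene, lies at chromosome 1, 203861714 to 203862195 (GRCh38, + strand, 482 nt) and begins 115 nt from the start of the gene. Retention, the percentage of reads that cross into the intron relative to all reads at its ends, was 3.78% and 6.06% in the control, 25.03% and 16.2% with sh1 and 23.7% and 16.4% with sh2. The groups did not overlap, since the lowest knockdown library was above the highest control library in both experiments. The means were 4.92% ± 1.61 (SD, n = 2) for the control, 20.6% ± 6.23 with sh1 and 20.04% ± 5.15 with sh2. In edgeR's quasi-likelihood test of boundary against spliced reads, retention rose by a log2 fold change of 2.31 (SE 0.287) over both shRNAs, with a Benjamini-Hochberg adjusted p of 2.06e-12 over all 134078 introns. Each shRNA alone gave the call, with edgeR log2 fold changes of 2.34 for sh1 (adjusted p = 3.02e-09) and 2.29 for sh2 (adjusted p = 1.08e-08). The difference between the shRNAs was 0.04 (SE 0.326, edgeR adjusted p = 1). By DESeq2 the adjusted p over both shRNAs was 3.49e-04.

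Reads crossed both ends of the SNRPE intron. On the 5′ splice site side there were 619 and 916 boundary reads in the control, 3304 and 2540 with sh1 and 3154 and 2388 with sh2. On the 3′ side there were 857 and 1314, 4061 and 3209, and 3995 and 3011. Both ends therefore showed the same order of groups, and reads covered the whole length of the intron in all 6 libraries (covered fraction 1). Spliced reads over this intron were lower in all 4 knockdown libraries, at 242 and 193 CPM in the control, 147 and 165 with sh1 and 148 and 177 with sh2. Adding the mean boundary count to the spliced count gave 252 and 205 CPM in the control, 196 and 197 with sh1 and 194 and 212 with sh2, where the groups overlapped.

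The other SNRPE introns carried few boundary reads. The second intron (203863726 to 203865040) was retained at 0.0145% and 0.0289% in the control, 0.0963% and 0.0492% with sh1 and 0.0341% and 0.0515% with sh2. These values are from 5 to 23 boundary reads per library, and although all 4 knockdown libraries were above both controls the edgeR adjusted p was 0.416. The spliced reads of the second intron were 223 and 193 CPM in the control, 159 and 169 with sh1 and 151 and 175 with sh2, so they were lower in all 4 knockdown libraries although its retention stayed far under 1%. Spliced reads over the third intron (203865120 to 203869876) were 214 and 171 CPM in the control, 135 and 143 with sh1 and 129 and 159 with sh2, again without overlap. SNRPE has 11 pseudogenes named after it in the RefSeq table, and how reads shared with such copies were assigned is not given in the sources used here.

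**Figure D1:**
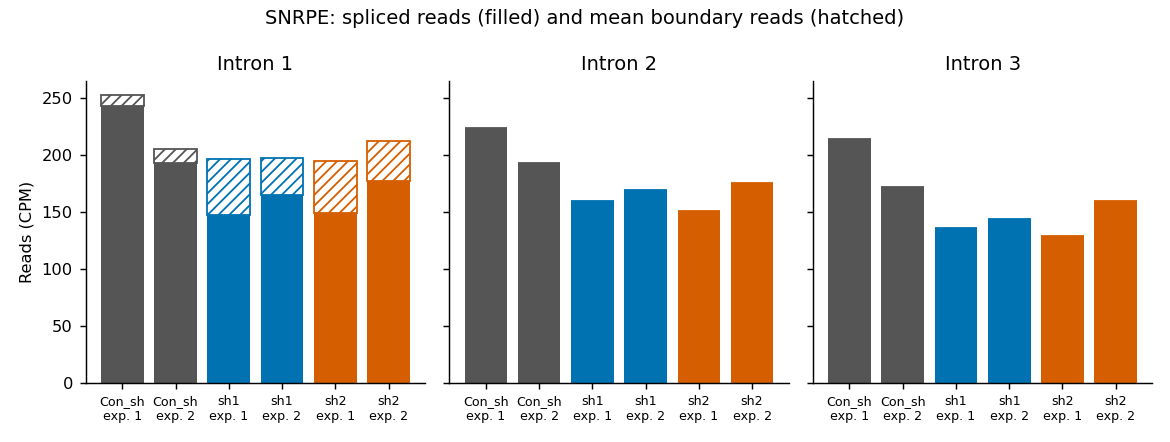
Reads over the 3 introns of SNRPE in each library, in CPM; filled bars are spliced reads and hatched bars the mean of the 2 boundary counts stacked on them. Boundary reads are visible at intron 1, where they rise from 9.52 and 12.4 CPM in the control to between 31.9 and 49.1 in the knockdown libraries, and spliced reads are lower in all 4 knockdown libraries at each intron.

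LSM5, a subunit of the ring that binds U6, held the other member intron that passed the test, with a smaller change. It lies at chromosome 7, 32487758 to 32489233 (- strand, 1476 nt), and was retained at 3.13% and 1.37% in the control, 7.27% and 3.75% with sh1 and 6.53% and 3.55% with sh2. All 4 knockdown libraries were above both controls, and knockdown was above control within each experiment. Over both shRNAs retention rose by a log2 fold change of 1.31 (SE 0.331, edgeR adjusted p = 0.0229), while the adjusted p was 0.0884 for sh1 and 0.224 for sh2. A shorter LSM5 intron that ends at the same 3′ splice site (32487758 to 32488624, 867 nt) stood at 2.89% and 1.29%, 6.04% and 2.92%, and 5.54% and 3.17%. Its edgeR adjusted p was 0.100, and because the 2 introns share their 3′ boundary reads they are not independent. The call for the longer intron was lost by DESeq2 (adjusted p = 1.0) and by edgeR without replicate 2 of the control (log2 fold change 0.72, adjusted p = 1.0), replicate 1 of sh1 (0.602) or replicate 1 of sh2 (0.465). It was also lost by edgeR with the smaller boundary count doubled (0.391), with introns of at least 50 reads (0.149) and with introns covered to at least 0.95 (0.537), whereas the SNRPE call was kept in each of these settings.

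**Figure D2:**
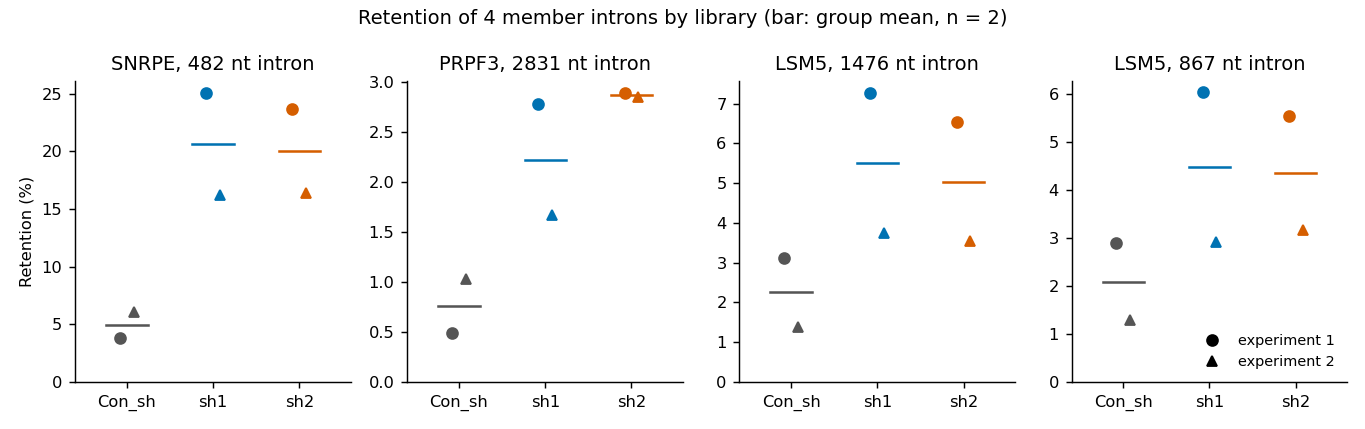
Retention, in percent from 0, of the 4 member introns with the smallest p over both shRNAs, by group; circles are experiment 1, triangles experiment 2 and bars the mean of 2 libraries. SNRPE stands at 3.78% and 6.06% in the control and at 16.2% to 25.03% after knockdown, and the knockdown libraries of PRPF3 and of the 1476 nt LSM5 intron lie above their controls at lower levels.

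Over both shRNAs, edgeR called 2 of the 434 member introns higher in retention and 0 lower at an adjusted p of 0.05. Among all tested introns 0.33% were called higher and 0.0209% lower. With sh1 alone 1 member intron was higher and 0 lower, against 0.292% and 0.0104% of all introns, and with sh2 alone 1 and 0, against 0.266% and 0.0201%. In both cases it was the SNRPE intron. Between sh1 and sh2, edgeR and DESeq2 called 0 of the 434, where edgeR called 0.0246% of all introns higher with sh1 and 0.0097% lower. At an unadjusted edgeR p under 0.05, 8 were higher and 10 lower with sh1 than with sh2 (background 1.31% and 2.51%). By DESeq2 over both shRNAs 1 member intron was called higher, against 0.188% of the 102884 introns to which it gave an adjusted p.

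At an unadjusted edgeR p under 0.05, 31 member introns (7.14%) were on the higher side and 3 (0.691%) on the lower side, against 2.78% and 1.66% of all introns. With sh1 these were 27 and 7 (background 2.53% and 1.56%), and with sh2 30 and 4 (background 3.35% and 1.15%). The number on the higher side over both shRNAs ran from 15 without replicate 1 of the control to 43 without replicate 2 of sh1, and was 19 by DESeq2. Retention was above both controls in all 4 knockdown libraries for 46 member introns (10.6%), in 28 genes, against 7.28% of all introns, and below both controls in all 4 for 8, against 4.11%. These backgrounds of all introns were not matched for depth. Spliced reads per intron in the control had a median of 26.1 CPM over the member genes and 2.76 over all tested genes. The part of depth in these shares was not tested. The median log2 fold change of the member introns was 0.13 against 0.08 for all tested introns. Without replicate 1 of the control it was 0.05 against 0.12, so the order of members and all introns turned with 1 library. For sh2 alone it was 0.18 against 0.16; with boundary and spliced reads scaled to their own totals, a setting chosen after the data were seen, these were 0.02 and 0.00, a shift of the whole table. For sh1 the values were 0.10 against 0.02, and 0.09 against 0.02 with that scaling.

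**Figure D3:**
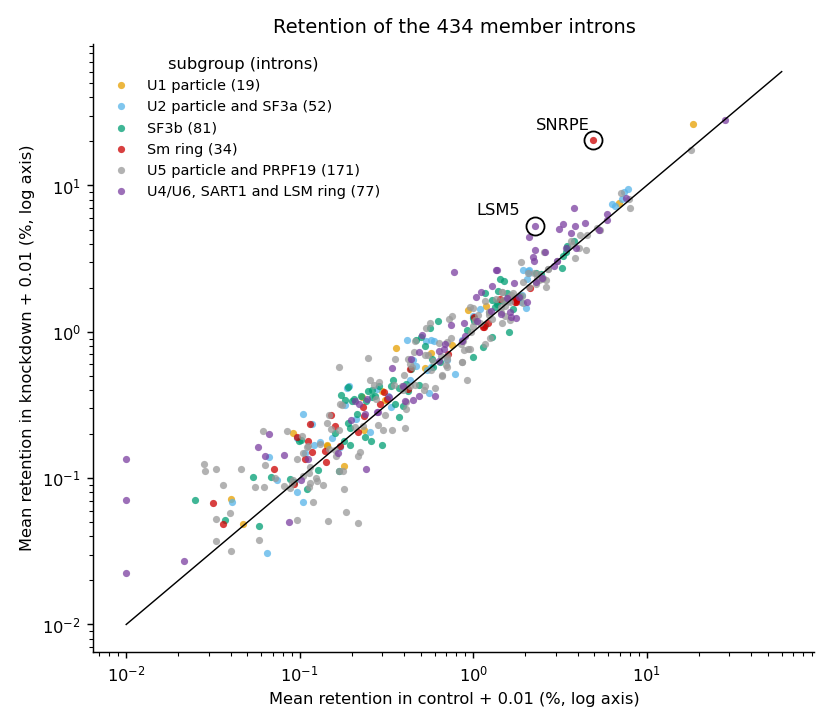
Mean retention of each of the 434 member introns in the control (horizontal) and in the knockdown groups (vertical, mean of the sh1 and sh2 means), both in percent plus 0.01 on log axes, coloured by subgroup; the line marks equal values and open circles the 2 called introns. Most points lie along the line, and SNRPE stands farthest above it among introns retained at over 1% in the control.

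No further member intron passed this test, and several of those with the smallest p rested on few boundary reads. The protein PRPF3 belongs to the U4/U6 particle, and its intron at chromosome 1, 150340478 to 150343308 had retention of 0.494% and 1.03% in the control, 2.79% and 1.67% with sh1 and 2.89% and 2.85% with sh2. The groups did not overlap, but the boundary reads numbered 6 and 15 in the control and 21 to 36 after knockdown, and the edgeR adjusted p was 0.200 (log2 fold change 1.72, SE 0.523). The LSM8 gene, whose product is the subunit that sets the U6 ring apart from the cytoplasmic one, had 1 listed intron, at chromosome 7, 118185695 to 118188277. It stood at 1.12% and 1.60% in the control, 2.63% and 2.40% with sh1 and 2.84% and 2.72% with sh2, again without overlap, with an edgeR adjusted p of 0.478 (log2 fold change 0.99, SE 0.344).

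Further introns among the 15 with the smallest p were nearly always removed. In SNRPG, an Sm ring gene, 2 nested introns that share their 3′ end (chromosome 2, from 70289373 to 70292674 and to 70291280) were retained at no more than 0.374% in any library, with log2 fold changes of 1.12 and 0.88. Both LSM4 introns that start at the same 5′ splice site (chromosome 19, from 18312703 and from 18316066 to 18323017) stayed at or under 0.324%, with log2 fold changes of 1.67 and 1.57. SNRNP70, the U1 protein that binds U1 RNA and helps hold the particle on the 5′ splice site, had an intron at chromosome 19, 49085637 to 49086404 at 0.0854% and 0.0774% in the control, 0.316% and 0.138% with sh1 and 0.184% and 0.133% with sh2. SF3A2, of the U2-bound SF3a complex, had one at chromosome 19, 2243545 to 2244543 at 0.291% and 0.515%, 0.803% and 0.885%, and 1.11% and 0.701%. EFTUD2, the GTPase of the U5 particle, had one at chromosome 17, 44855005 to 44857074 with 0 and 2 boundary reads in the control and 1 to 8 after knockdown. On the lower side were introns of the U5 proteins SNRNP200 (chromosome 2, 96291503 to 96291750) and PRPF6 (chromosome 20, 64027159 to 64027602), each with 8 boundary reads in 1 control library and at most 4 in any other library. The edgeR adjusted p of these 9 introns ran from 0.338 in the longer SNRPG intron to 0.784 in the shorter one.

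The introns most retained in the control were a different set, and none of the 10 was called. One LSM5 intron, an alternative with a mean of 132 boundary plus spliced reads (chromosome 7, 32489345 to 32494990), stood at 28.3% and 28.4% in the control, 40.7% and 16.8% with sh1 and 32.0% and 22.9% with sh2, so the libraries of each knockdown lay on both sides of the control. It had 1.10 and 0.859 CPM of spliced reads in the control. Shorter LSM5 introns that end at the same 3′ splice site had 33.2 to 35.5 CPM there. Its 3′ boundary reads are also theirs, so its high percentage is not a measure of this intron alone. The SNRNP70 intron spanning 49101472 to 49104633 on chromosome 19 stood at 17.4% and 19.4% in the control, 31.1% and 19.3% with sh1 and 32.3% and 23.3% with sh2. Its high values were the experiment 1 knockdown libraries, and sh1 of experiment 2 lay among the controls (log2 fold change 0.65, edgeR adjusted p = 1). SNRNP200, the helicase that unwinds U4 from U6, had an intron at chromosome 2, 96284586 to 96285179 at 20.4% and 15.6%, 18.2% and 15.6%, and 18.8% and 17.6%. Its log2 fold change was -0.03, the nearest to no change among these 3.

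Of the next introns in that order, PRPF8, the core protein of U5, was level at chromosome 17, 1659549 to 1659840, with 7.86% and 8.04% in the control, 8.19% and 7.5% with sh1 and 7.65% and 8.78% with sh2. Introns of PRPF6 (chromosome 20, 64029492 to 64031917), SF3A2 (chromosome 19, 2245556 to 2246752), PRPF31 (chromosome 19, 54128378 to 54129056), SNRPA1 (chromosome 15, 101285802 to 101286213 and 101286294 to 101286907) and DDX23 (chromosome 12, 48837658 to 48837941) had control means of 7.12% to 8.05%. Their log2 fold changes ran from -0.27 in PRPF6 to 0.33 in DDX23. All 10 introns had an edgeR adjusted p of 1. Member introns were thus not spliced alike in the control. With the alternative LSM5 intron left aside, their control means ran from 0% in PRPF31 and SART1 to 18.4% in SNRNP70. The median over the 434 introns was 0.520% ± 0.0612 (SD of library medians, n = 2), against 1.26% ± 0.106 for all tested introns.

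Pooled over all reads of the 434 introns, retention was 0.974% and 1.07% in the control, 1.55% and 1.16% with sh1 and 1.63% and 1.37% with sh2, lower than the 2.13% to 2.89% of all tested introns in every library. The knockdown libraries were all above both controls. Without the first SNRPE intron the values were 0.920% and 0.990%, 1.17% and 0.927%, and 1.21% and 1.11%, and the groups overlapped. Leaving it out took the boundary reads from 20355 to 18879 in the first control library and from 28254 to 20889 in the first sh1 library.

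By role, the Sm ring, which holds the called SNRPE intron, stood at 0.686% and 0.877% in the control, 1.87% and 1.34% with sh1 and 2.03% and 1.501% with sh2. Without that intron, over the other 33 Sm ring introns the values were 0.512% and 0.610% in the control, 0.618% and 0.543% with sh1 and 0.581% and 0.620% with sh2, and the groups overlapped. The U4/U6 and LSM subgroup stood at 1.38% and 1.25%, 2.06% and 1.36%, and 1.99% and 1.56%, with sh1 of experiment 2 between the controls. SF3b, the branch point complex shared with the minor spliceosome, was at 0.737% and 0.847% in the control and 0.745% to 0.891% after knockdown. The U5 subgroup was at 1.13% and 1.16% in the control and 1.04% to 1.29% after knockdown. In these 2 subgroups, and in U1 and in U2 with SF3a, the groups overlapped, and no test was made of these pooled values.

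**Figure D4:**
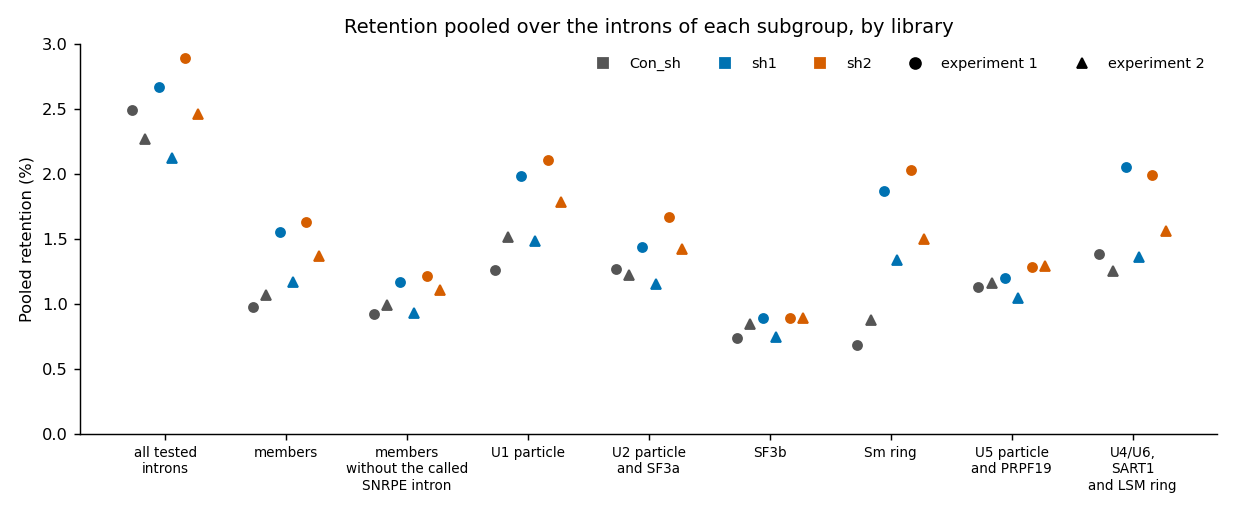
Retention pooled over the reads of all introns in each set, in percent from 0, for each library; colours are groups, circles experiment 1 and triangles experiment 2. The Sm ring with its SNRPE intron is at 0.686% and 0.877% in the control and 1.34% to 2.03% after knockdown, and the values of all members overlap between groups once that intron is left out, as do those of the other 33 Sm ring introns, which are not plotted.

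Expression was read from the spliced reads of each gene, added up over its non-overlapping introns, in CPM after scaling with edgeR's TMM factors. These genes were well expressed: spliced reads per intron in the control had a median of 26.1 CPM over the 39 members, against 2.76 over all 12929 genes tested, and the lowest member stood at the percentile 77.2 of all genes. SNRPE had the highest level, 206 CPM per intron (percentile 99.1), and PRPF3 the lowest, 8.97. Within the subgroups the highest and lowest levels per intron were SNRPC (74.6) and SNRPA (24.4) in U1, SF3A3 (31.4) and SF3A1 (15.3) in U2 with SF3a, SF3B6 (55.7) and SF3B3 (16.0) in SF3b, SNRPE and SNRPD3 (60.1) in the Sm ring, PRPF19 (36.4) and PRPF6 (10.7) in U5, and LSM7 (89.7) and PRPF3 in the last. The Sm ring genes ran from 60.1 to 206 CPM per intron, and SNRPC (74.6), LSM7 (89.7) and LSM3 (61.2) of other subgroups lay within that range.

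No member gene passed the test of gene sums over both shRNAs, with sh1, with sh2 or between them. By edgeR 0 of 39 were called, against a background of 0.0% of all genes, and 5 had an unadjusted p under 0.05, all on the lower side (background 4.75%). By DESeq2 0 of 39 were called too, where 0.88% were called higher and 0.604% lower of the 11926 genes to which it gave an adjusted p; its shares below are likewise of such genes. With sh1, 0 member sums were higher and 3 lower at an unadjusted edgeR p (background 4.01% and 3.71%), and DESeq2 called 0 (background 0.678% and 0.292%). With sh2 the numbers were 0 and 2 (background 5.46% and 4.07%), and 0 by DESeq2 (background 0.852% and 0.678%). Between the shRNAs they were 0 and 0 (background 2.71% and 2.9%), and 0 by DESeq2 (background 0.225% and 0.185%). The sums leaned to the lower side: 33 of 39 log2 fold changes were below 0 (84.6%, against 50.3% of all genes), with a median of -0.14 against 0.00 over all genes. The median was -0.07 with sh1 and -0.22 with sh2. In 13 members all 4 knockdown libraries were lower than both controls (33.3%, background 11%), and in 1, SF3B1, all were higher (background 10.4%). The background of all genes was not matched to the members for level or intron number. Over all genes, level per intron had a rank correlation of -0.188 with the log2 fold change. Its part in the lean was not tested. The lean rests in part on single libraries: without replicate 2 of the control the median was -0.06 with 27 of 39 below 0, without replicate 1 of sh2 it was -0.06 with 29 of 39, and without replicate 2 of sh2 it was -0.22 with 34 of 39.

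As a share of all gene-sum reads, the 39 members took 1.19% and 1.16% in the control, 1.09% and 1.14% with sh1 and 0.945% and 1.10% with sh2. The order control, sh1, sh2 held within each experiment and was widest in experiment 1, where the knockdown libraries with high K562 marker sums lie. The part of those sums in this order was not tested. The Sm ring accounted for 0.340% and 0.305%, 0.281% and 0.285%, and 0.227% and 0.275%, lower in all 4 knockdown libraries.

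The Sm ring had the lowest median of the subgroups, -0.27, with 7 of 7 genes below 0 and 5 of 7 lower in all 4 knockdown libraries. SNRPG stood at 751 and 552 CPM in the control, 451 and 503 with sh1 and 375 and 483 with sh2, a log2 fold change of -0.53 (SE 0.177, edgeR adjusted p = 0.488). SNRPE stood at 679 and 557 CPM, 442 and 477, and 428 and 511, a log2 fold change of -0.41 (SE 0.146, edgeR adjusted p = 0.493). SNRPD2 was at 486 and 400 CPM, 370.5 and 369, and 297 and 358 (-0.35, edgeR adjusted p = 0.517). SNRPF, at 372 and 341 in the control, was at 250 to 318 after knockdown (-0.27), and SNRPD3, at 187 and 173, was at 152 to 172 (-0.14). SNRPB and SNRPD1, the other ring members, had overlapping groups. Reads of SNRPG and SNRPE may be shared with pseudogenes, of which RefSeq names 20 and 11. The same limit holds for other members, among them SNRPF (4) and, outside the ring, SNRPC (20), PHF5A (7) and LSM3 (5).

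**Figure D5:**
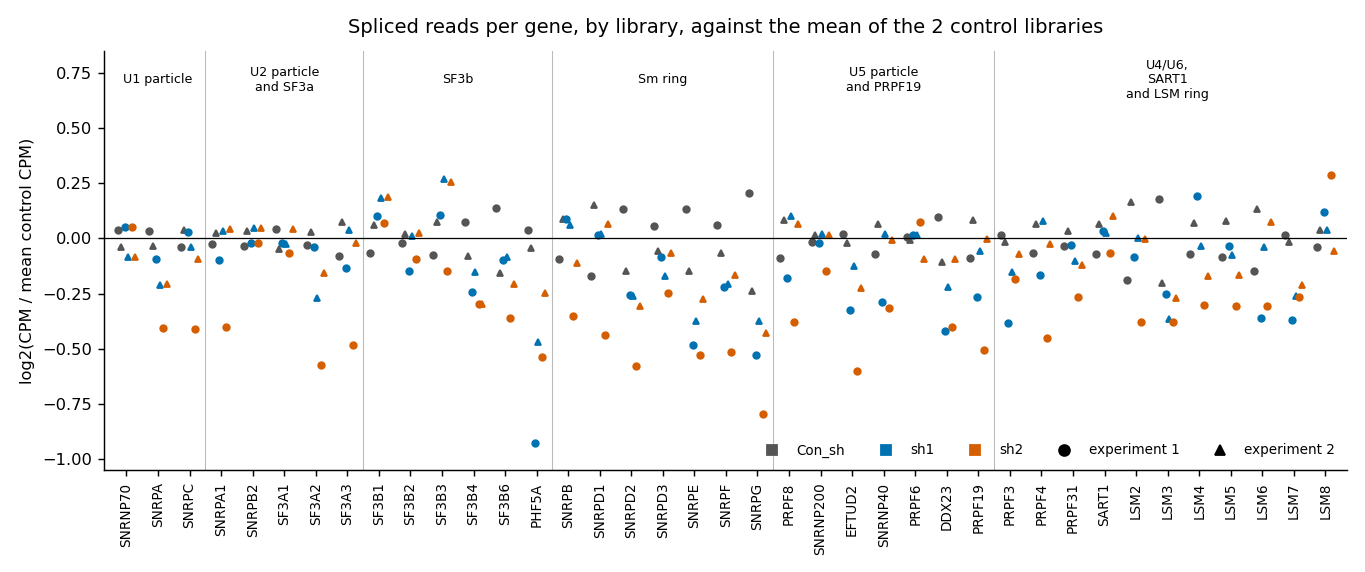
Spliced reads summed per gene in each library, as the log2 ratio to the mean of the 2 control libraries, for the 39 members in order of role; grey is control, blue sh1 and orange sh2, circles experiment 1 and triangles experiment 2. PHF5A, SNRPE and SNRPG have all 4 knockdown points below both control points, and the sh2 library of experiment 1 is the lowest point in many genes.

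In SF3b, PHF5A, a small subunit near the branch point, had the lowest log2 fold change of all members, -0.53 (SE 0.178, edgeR adjusted p = 0.488, DESeq2 adjusted p = 0.201). Its levels were 51.7 and 48.8 CPM in the control, 26.4 and 36.2 with sh1 and 34.7 and 42.3 with sh2, without overlap. SF3B4, which contacts RNA near the branch point, was at 119 and 107 CPM in the control and 92.0 to 102 after knockdown. SF3B6 read 184 and 150 in the control and 130 to 158 after knockdown, overlapping. The largest subunit, SF3B1, was at 481 and 525 CPM in the control, 540.1 and 572 with sh1 and 528 and 574 with sh2, a log2 fold change of 0.14 (edgeR adjusted p = 0.725). Subunits of 1 complex thus stood on both sides of the control.

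Differences in U1 and U2 proteins were small. SNRPA, the U1 protein that binds a stem-loop of U1 RNA, was at 125 and 119 CPM in the control, 115 and 105 with sh1 and 92.3 and 106 with sh2 (log2 fold change -0.23, edgeR adjusted p = 0.570). SF3A2 was at 200.03 and 209 in the control and at 137 to 199 after knockdown (-0.25, edgeR adjusted p = 0.607). The highest member of the U1 subgroup by sum, SNRNP70, had a log2 fold change of -0.01.

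In U5, EFTUD2 was at 644 and 626 CPM in the control, 508 and 582 with sh1 and 419 and 544 with sh2 (-0.31, edgeR adjusted p = 0.550). DDX23, a helicase that helps U1 leave the 5′ splice site, was at 379 and 329 in the control and 264 to 331 after knockdown (-0.28). PRPF19, the ubiquitin ligase that acts on the assembled spliceosome, had a log2 fold change of -0.20 and SNRNP40 of -0.14, both with overlapping groups. PRPF8 (-0.09), SNRNP200 (-0.03) and PRPF6 (0.00) were nearest to 0.

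Among the U4/U6 proteins and the LSM ring, LSM7 was at 181 and 178 CPM in the control, 139 and 149.8 with sh1 and 149 and 155 with sh2, without overlap (-0.28, SE 0.112, edgeR adjusted p = 0.514). LSM3 was at 208 and 159.5 in the control and 141 to 154 after knockdown (-0.32, edgeR adjusted p = 0.533). PRPF3, at 136 and 133 in the control and 103 to 128 after knockdown, had a log2 fold change of -0.20, PRPF31 of -0.13 and LSM5 of -0.14. For LSM5 the gene sum gave an edgeR adjusted p of 0.708, beside the called rise of its intron. LSM8 leaned the other way, with 33.7 and 35.6 CPM in the control and 33.4 to 42.3 after knockdown (0.10).

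Other spliceosome genes give the setting for these values, from 6 lists with 107 genes, also chosen with earlier results of these data known. In 1151 introns of 102 of them, 6 were more retained over both shRNAs (0.521%, beside 0.33% of all introns) and 1 less retained by edgeR. The 6 were 2 introns each of RNPC3 and UBL5 and 1 each of IK and CRNKL1, named here after their values were seen. UBL5, a small protein of the tri-snRNP list, had introns on chromosome 19 from 9828394 to 9828591 at 3.52% and 4.39% in the control, 12.9% and 9.13% with sh1 and 16.2% and 12.3% with sh2, and from 9828875 to 9829964 at 0.742% and 0.690%, 6.10% and 2.37%, and 4.93% and 1.85%. IK (chromosome 5, 140659835 to 140660114) was at 2.53% and 1.20% in the control, 26.9% and 7.87% with sh1 and 5.54% and 4.15% with sh2. CRNKL1 of the PRPF19-associated complex (chromosome 20, 20045487 to 20047764) was at 5.18% and 4.48%, 26.5% and 17.1%, and 18.3% and 13.4%. The list of U2 auxiliary and early factors had 0 introns higher and 1 lower of 315 by edgeR. In step helicases and late factors (0 of 205) and in the SMN complex and Sm assembly (0 of 170) none was more retained. At an unadjusted edgeR p under 0.05 these lists had, in that order, 6, 7 and 13 introns on the higher side. On the lower side they had 7, 2 and 1, beside 2.78% higher and 1.66% lower of all introns.

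For gene sums, ZRSR2 was the 1 gene of these lists called by DESeq2, and none was called by edgeR. The median log2 fold change over the 102 genes was -0.03, with 59 below 0. By list it was 0.13 for the U11/U12 proteins (6 of 13 below 0) and -0.02 for the U2 auxiliary and early factors (12 of 23). It was -0.08 for the other tri-snRNP proteins (7 of 13). For the PRPF19-associated complex together with factors of the activated spliceosome it was -0.01 (11 of 20). It was -0.03 for the step helicases and late factors (8 of 14) and -0.19 for the SMN complex and Sm assembly (15 of 19). The SMN list was thus the nearest to the -0.27 of the Sm ring itself, and no test was made between lists.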

How the data were processed

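Per the file headers, the authors deposited for each K562 library raw read counts at both boundaries of an intron and spliced read counts, a covered fraction and a retention percent (MSI). The deposited percent equals 100 times boundary reads over boundary plus 2 times spliced reads (largest deviation 2.84e-14). Aligner, counter, annotation and use of strand are not given in the sources used, so antisense reads may be included. The submitters' processing notes name hg19, but 95.6% of introns lay inside a RefSeq GRCh38.p14 gene, against 62.6% and 62.9% after shifts of 100000 nt, and positions are printed as GRCh38.

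Members and lists were chosen with earlier results of these data known. Pairs of boundary and spliced counts were tested by edgeR 4.0.16 quasi-likelihood (R 4.3.3), with library as a factor and Benjamini-Hochberg adjustment over 134078 introns. Gene sums passed filterByExpr (12929 genes), were TMM-scaled (0.986 to 1.01) and tested likewise over all 6 libraries. The scripts were tested on simulated data. Alternatives were DESeq2 1.42.0, other filters, scalings and boundary counts, a replicate block and leaving out each library, where the lone library was assumed to vary like the others. Replicates differed beyond sampling noise (mean chi-square per gene 135 to 290.2). Named were called member introns and those up to 15 with the smallest p, 20 genes with the smallest p, the 10 introns most retained in the control and the highest and lowest level per subgroup.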

Additional observations from a re-analysis of the deposited data

How the results depend on the processing

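The first SNRPE intron was called over both shRNAs in every setting run, with log2 fold changes from 1.96 to 2.67 and edgeR or DESeq2 adjusted p up to 0.0104. Against the main count of 2 member introns over both shRNAs, 1 was called by DESeq2, among the 222 introns covered to at least 0.95, with a minimum of 50 reads and on doubling the smaller boundary count, while leaving out 1 library gave 1 to 3; the cause was not tested. For sh1, scaling boundary and spliced reads to their own totals gave 2 in place of 1, and leaving out 1 library gave 1 to 2, as it did for sh2. Member gene sums called stayed at 0 in all settings. Over all introns, the main 443 higher and 28 lower became 193 and 7 by DESeq2, 208 and 4 with the coverage limit, 78 and 1 with the smaller boundary count and 245 to 554 higher without 1 library.

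With the experiment number as a replicate block, 5 member introns were called over both shRNAs, 3 with sh1 and 4 with sh2, and 599 higher and 67 lower over all introns. The block added PRPF3 (edgeR adjusted p = 0.0443), the shorter LSM5 intron (8.72e-04) and LSM8 (0.0484) over both shRNAs, and the longer LSM5 intron for sh1 (4.57e-04) and sh2 (0.00395). The labels do not say that a number marks a shared day or batch. Differences between experiments 2 and 1 correlated across 12929 genes between groups (0.318, 0.356 and 0.536), which is a hint from the data and not from the design. The difference between sh1 and sh2 changed sign when libraries were left out, from -0.35 to 0.44 for SNRPE and from -0.38 to 0.62 for LSM5, none of it called; without replicate 2 of sh2 it was -0.29 and -0.33. Of 524 comparisons of 41 named results with an alternative, 500 kept direction and side of the threshold, 13 gained a call, 7 lost it and 4 changed sign. Depth limits introns with few boundary reads, such as those of EFTUD2, SNRNP200 and PRPF6.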

Other observations

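Members with few introns had the lower median log2 fold change in gene sums, none of them called. The median log2 fold change was -0.23 in the 12 members with 3 or fewer introns in the sum, of which 11 were below 0, -0.12 in the 13 with 4 to 9 and -0.07 in the 14 with 10 or more. All tested genes showed the same order at a smaller size, at -0.06, -0.03 and 0.05. Across the 39 members, which are not independent and share libraries, the rank correlation of intron number with log2 fold change was 0.414, beside 0.146 over all 12929 genes. The 12 are PHF5A, SF3B6, SNRPD1, SNRPD2, SNRPD3, SNRPE, SNRPF, LSM3, LSM5, LSM6, LSM7 and LSM8, with log2 fold changes from -0.53 in PHF5A to 0.10 in LSM8. Their control levels ran from 16.5 CPM per intron in LSM6 to 206 in SNRPE. Level per intron had a rank correlation of -0.370 with the log2 fold change among members and -0.188 over all genes.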
